A study of Mus musculus with 6 samples.

Results

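Immune checkpoint receptors and ligands were followed through the cells of 6 rhabdoid tumors of mice. The 10 genes were taken by name, with earlier results of these data known, out of 16557 genes listed in the count tables. A gene that a table does not list was counted as 0 there. They are the receptors Pdcd1, Ctla4, Lag3, Havcr2 and Tigit, the ligands Cd274, Pdcd1lg2 and Cd86, and the pair Cd47 and Sirpa. All were listed for every tumor except Tigit, which was listed for 3 of 6.

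T cells carry receptors that dampen their activity once they are engaged by ligands on other cells. PD-1 (Pdcd1) binds PD-L1 (Cd274) and PD-L2 (Pdcd1lg2), CTLA-4 (Ctla4) competes with the activating receptor CD28 for CD80 and CD86, and LAG-3 (Lag3), TIM-3 (Havcr2) and TIGIT (Tigit) add further brakes on T and NK cells. CD47 acts in another way: it is displayed by most cells and binds SIRPα (Sirpa) on phagocytes, which holds back engulfment.

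Single-cell RNA sequencing libraries had been made from 3 MYC spinal tumors and 3 extracranial rhabdoid tumors (eRT). MYC spinal Rosini1172, Rosini1177 and Rosini1232 were spinal tumors of Rosa26-cre mice aged 19, 26 and 17 weeks. eRT Rosini1148 was a gland tumor of a Rosa26-cre mouse of 17 weeks, and eRT Soxertini568 (jaw, 29 weeks) and eRT Soxertini593 (shoulder, 22 weeks) arose in Sox2-cre mice. In both strains a tamoxifen-inducible cre deleted floxed Smarcb1 (Smarcb1 fl/fl) on a C57BL/6 background, after dams had received 1 dose of tamoxifen early in gestation, so every group carried the same lesion and no tumor was a control. The Rosa26 promoter is active in most tissues and the Sox2 promoter in early progenitors, and the mouse strain is therefore partly confounded with the tumor subtype. Each tumor came from 1 animal, and a tumor is 1 sample below.

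The 22163 cells kept, 1469 to 6740 for each tumor, were grouped by clustering in which the checkpoint genes and the other genes of their pathway took no part. The classes compared were 2466 tumor cells (clusters with almost no Smarcb1), 1669 T-like, 359 NK-like and 13284 myeloid-like cells, the last made up of macrophage- or monocyte-like, dendritic-like, neutrophil-like and osteoclast-like cells. Depth differed between tumors, with a median of 488 UMIs in the T-like cells of MYC spinal Rosini1177 and up to 2406 elsewhere. The tables number their cells without barcodes, so barcodes shared between libraries could not be counted. T markers, summed over the list, reached 1220 to 7000 CPM (the UMIs of a gene or list relative to all UMIs of those cells) in T-like cells and 9.23 to 836 CPM in macrophage- or monocyte-like cells, with MYC spinal Rosini1172 at the top of both ranges. Macrophage and monocyte markers reached 881 to 4160 CPM in T-like cells, highest in MYC spinal Rosini1232, and 14600 to 47200 CPM in macrophage- or monocyte-like cells. NK markers reached 32.2 to 1710 CPM in T-like cells and 3590 to 13600 CPM in NK-like cells. The 41 T-like cells of MYC spinal Rosini1232 held NK markers at 1710 CPM and osteoclast markers at 2170 CPM. Both were above their T markers (1220 CPM), which leaves the label of these cells in doubt. The T-like cells of MYC spinal Rosini1177 held neutrophil markers at 10100 CPM beside T markers at 2040 CPM. Its NK-like cells held neutrophil markers at 5650 CPM beside NK markers at 4000 CPM. These labels are in doubt as well, and the part of neutrophil RNA in the levels of both kinds was not tested. The T-like cells of eRT Rosini1148 had NK markers at 1040 CPM beside T markers at 3570 CPM. The 20 cells of eRT Soxertini568 that fell into an osteoclast-like cluster held 2 of 8 osteoclast markers and T markers at 1290 CPM, which goes against their label. They stayed in the sum of myeloid-like cells of that tumor, where they held 6 of its 20 Pdcd1 UMIs and 12 of its 72 Ctla4 UMIs. A cluster of 141 cells with markers of both T and NK cells was kept out of both classes. The remaining cells, 527 B-like, 78 fibroblast-like and 3639 in clusters that took no name, entered no comparison. Cells without a name held from 7.73% (Pdcd1lg2) to 19.9% (Sirpa) of the UMIs of a member.

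In build GRCm38 the GENCODE annotation places the genes at these positions: chr1:94038305-94052553 for Pdcd1, chr1:60887000-60915832 for Ctla4, chr6:124904361-124911705 for Lag3, chr11:46454935-46481255 for Havcr2, chr16:43648867-43664146 for Tigit, chr16:36603869-36666081 for Cd86, chr16:49800533-49915010 for Cd47 and chr2:129592835-129632228 for Sirpa. The PD-1 ligands are neighbors: Cd274 (chr19:29367455-29388095) and Pdcd1lg2 (chr19:29410919-29471161) lie on the same strand with 22823 bases between them. Antisense genes are annotated over both ligands (AC119228.1 and A930007I19Rik) and a pseudogene, Rpl18-ps1, over Ctla4, and UMIs of such partners could not be told apart where the strand used in counting is not known. The 250 bases before the RefSeq start are shown for Pdcd1 and Ctla4, receptors found mostly in T-like cells, and for the ligands of PD-1. Capitals mark GGGCGG (the GC box) and GGAAAA (the core of NFAT sites), searched on both strands. Coordinates are GRCm38.p6, and the sequences are from RefSeq, read in the direction of the gene.
Pdcd1, chr1:94052554-94052803, minus strand: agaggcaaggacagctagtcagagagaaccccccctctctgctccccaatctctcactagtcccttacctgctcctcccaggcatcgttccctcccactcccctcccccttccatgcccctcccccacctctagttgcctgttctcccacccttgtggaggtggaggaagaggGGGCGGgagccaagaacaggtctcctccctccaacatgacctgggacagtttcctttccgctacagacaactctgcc
Ctla4, chr1:60908775-60909024, plus strand: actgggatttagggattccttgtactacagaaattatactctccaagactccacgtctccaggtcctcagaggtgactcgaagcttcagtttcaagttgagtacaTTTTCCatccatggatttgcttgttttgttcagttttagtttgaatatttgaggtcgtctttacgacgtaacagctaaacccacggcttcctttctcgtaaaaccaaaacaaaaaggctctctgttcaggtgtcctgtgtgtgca
Cd274, chr19:29367188-29367437, plus strand: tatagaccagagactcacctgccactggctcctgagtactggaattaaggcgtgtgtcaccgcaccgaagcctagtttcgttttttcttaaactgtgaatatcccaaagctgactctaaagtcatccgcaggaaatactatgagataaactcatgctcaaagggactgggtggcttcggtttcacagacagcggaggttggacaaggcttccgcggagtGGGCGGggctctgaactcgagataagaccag
Pdcd1lg2, chr19:29410669-29410918, plus strand: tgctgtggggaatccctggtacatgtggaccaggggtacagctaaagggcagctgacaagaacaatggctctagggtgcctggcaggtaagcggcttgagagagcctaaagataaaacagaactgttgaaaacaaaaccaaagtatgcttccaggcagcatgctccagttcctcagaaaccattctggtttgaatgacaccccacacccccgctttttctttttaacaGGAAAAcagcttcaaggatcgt

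The GC box stood in the windows of Pdcd1, Cd274 and Cd47 and in 32.7% of all 32851 promoters of this length, and GGAAAA stood in those of Ctla4, Pdcd1lg2 and Tigit and in 20.4% of all. The interferon gamma activated site TTCNNNGAA, found in 7.02% of promoters, and the interferon stimulated response element, found in 2.98%, were in the window of no member. The AP-1 site TGANTCA, found in 6.75%, was in that of Havcr2. No window of Lag3, Cd86 or Sirpa was used here.

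Pdcd1 and Ctla4 had most of their UMIs in T-like cells. Of 746 Pdcd1 UMIs in all kept cells 533 (71.4%) were in T-like cells, and of 580 Ctla4 UMIs 326 (56.2%) were. Pdcd1 reached 285, 0 and 29.1 CPM in the T-like cells of MYC spinal Rosini1172, Rosini1177 and Rosini1232, and 129, 117 and 59.8 CPM in those of eRT Rosini1148, Soxertini568 and Soxertini593. MYC spinal Rosini1172 stood highest, and the 183 shallow T-like cells of MYC spinal Rosini1177 held none, which allows up to 26.9 CPM there. At least 1 Pdcd1 UMI was seen in 27.6%, 0% and 4.88% of the T-like cells of the MYC spinal tumors and in 24.3%, 12.4% and 8.61% of those of the eRT. Thinned to 1000 UMIs a cell the shares came to 19%, 0% and 3.15%, and to 11.8%, 10.3% and 5.79%, in the same order. The share was 0.0634% in the osteoclast-like cells of MYC spinal Rosini1232, at a median of 4580 UMIs against 2070 in its T-like cells, and 0.498% in the neutrophil-like cells of eRT Soxertini568. It was not low in all myeloid cells. In MYC spinal Rosini1172 it reached 16.5% of the 230 macrophage- or monocyte-like cells at a median of 3590 UMIs, and 6.41% at 1000 UMIs.

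Ctla4 had 108, 98.6 and 19.4 CPM in the T-like cells of MYC spinal Rosini1172, Rosini1177 and Rosini1232, and 156, 202 and 50.6 CPM in those of eRT Rosini1148, Soxertini568 and Soxertini593. Its level in T-like cells exceeded that in the myeloid-like cells of the same tumor in 6 of 6 tumors, and Pdcd1 did so in 5 of 6, MYC spinal Rosini1177 being the exception. In myeloid-like cells Ctla4 had 30.7, 3.41 and 1.1 CPM in the MYC spinal tumors and 0.218, 35.8 and 1.23 CPM in the eRT. Without the 20 cells that go against their label, eRT Soxertini568 had 30.7 CPM of Ctla4 and 7.16 in place of 9.93 CPM of Pdcd1 in myeloid-like cells. Across tumors the ranges of both genes overlapped between these kinds of cells. B-like cells, read in 3 tumors, had Ctla4 at 25.3 to 146 CPM, overlapping the 19.4 to 202 CPM of T-like cells. Their summed T markers were 116 to 1330 CPM, and the part of T cell RNA in this Ctla4 level was not tested.

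**Figure D1:**
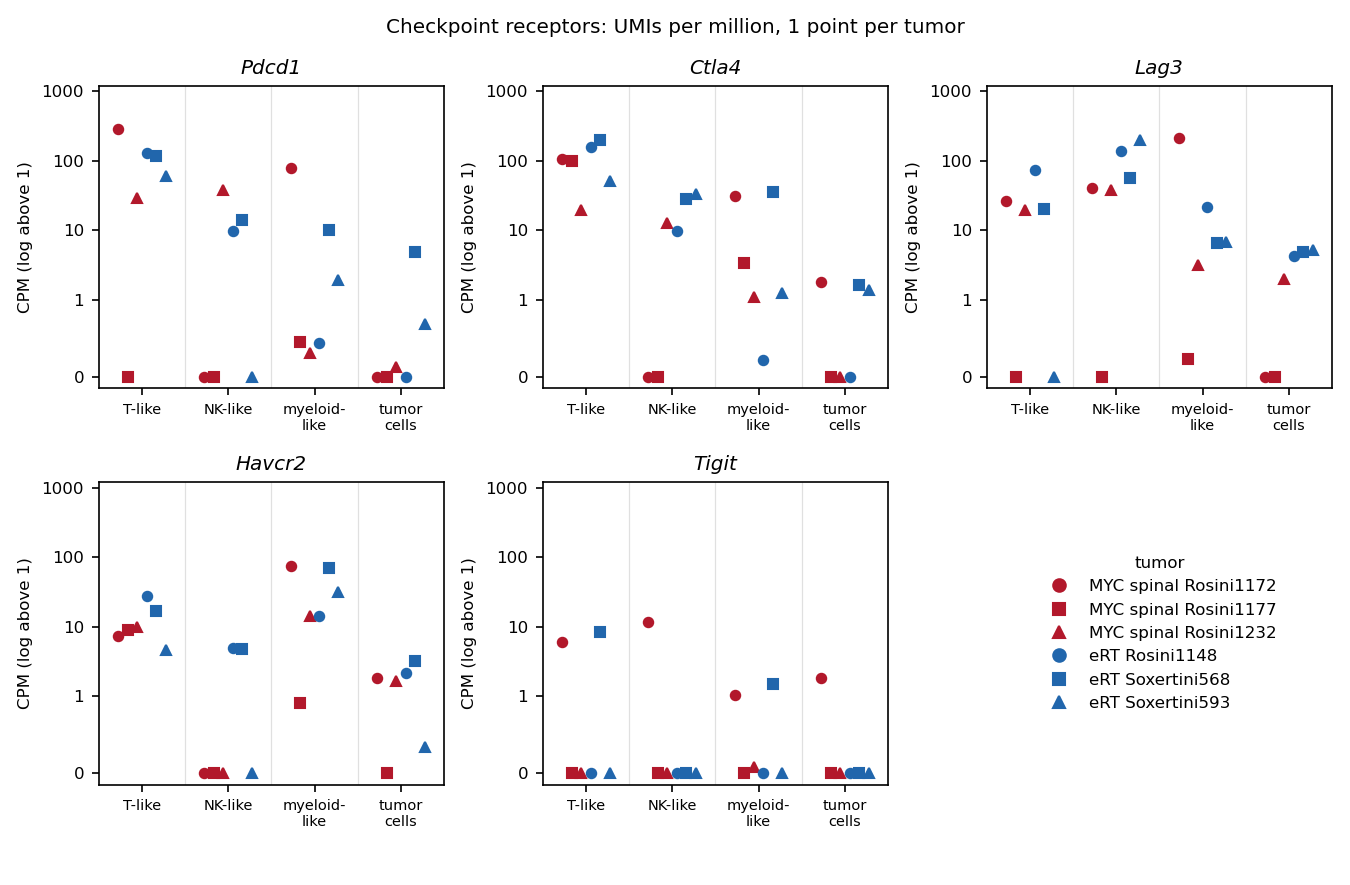
Level of the 5 checkpoint receptors in each tumor (CPM, log axis above 1 and linear below) for T-like, NK-like, myeloid-like and tumor cells, with 1 point for each tumor with at least 10 such cells. Ctla4 in T-like cells lies above myeloid-like cells in 6 of 6 tumors and Pdcd1 in 5 of 6, Lag3 reaches 215 CPM in the myeloid-like cells of MYC spinal Rosini1172, and Havcr2 reaches 73.8 CPM there.

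T-like and myeloid-like cells of the same tumor were compared across 7491 genes with edgeR's quasi-likelihood test, with the tumor as a block. Pdcd1 was higher in T-like cells by 3.94 ± 0.79 on the log2 scale (SE, 6 tumors, adjusted p = 0.00608), and Ctla4 by 3.81 ± 0.81 (adjusted p = 0.00854). Of the 9 members that passed the filter on low counts, 5 were past the threshold, against 18.7% of all genes tested. Here and in the other comparisons within tumors, that filter keeps a gene with enough counts in either kind alone. A member high in just that kind can thus enter the test through it. Among sums of T-like cells alone only Pdcd1, Ctla4 and Cd47 had enough counts, and among myeloid-like sums alone Pdcd1 and Pdcd1lg2 had not. The count of 5 of 9 is therefore not read as a result about the members. Without the block for the tumor the differences of Pdcd1 and Ctla4 were 2.79 and 2.96 with adjusted p = 0.178 and 0.0821, and both stayed past the threshold under the other 14 alternatives. One of these left out the 20 cells of eRT Soxertini568, with differences of 4.09 and 3.86 (adjusted p = 0.00485 and 0.00703). Sirpa, Havcr2 and Cd86 were lower in T-like cells and are described with the myeloid cells. Lag3 (-0.36 ± 0.91, adjusted p = 0.85), Cd274 (-0.46 ± 0.90, adjusted p = 0.793), Pdcd1lg2 (1.41 ± 1.04, adjusted p = 0.401) and Cd47 (0.34 ± 0.28, adjusted p = 0.462) did not pass the test. The median over the 9 members was -0.36, beside -0.07 over all genes tested.

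Within T-like cells Ctla4 was higher in cells with a UMI of Foxp3, the factor that defines regulatory T cells. The 42 such cells, 27 of MYC spinal Rosini1172, 14 of eRT Soxertini568 and 1 of eRT Soxertini593, held Ctla4 in 71.4% of cells (exact 95% interval 55.4 to 84.3%) at 658 CPM, and the 1627 others in 10.9% (9.46 to 12.6%) at 103 CPM. Per tumor the levels were 579 against 85.4 CPM in MYC spinal Rosini1172 and 946 against 173 CPM in eRT Soxertini568. Median depth was 1590 UMIs in the cells with Foxp3 and 1370 in the others. These intervals cover counting error only, and cells of a tumor are not replicates.

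The receptors were also read by T-like cluster. A MYC spinal cluster of 68 cells and an eRT cluster of 105 cells, both led by Foxp3, Tnfrsf4 and Ikzf2, had Ctla4 at 659 and 436 CPM. Ctla4 itself was among the leading genes of both, although it was not used to form them. Pdcd1 had 414 CPM in the first and 155 CPM in the second. It was as high, at 424 CPM and in 48.1% of cells, in a MYC spinal cluster of 185 cells led by Cd163l1 and Il17a, the latter encoding the cytokine interleukin 17A, where Ctla4 had 29.6 CPM. The eRT cluster led by Cd163l1 and Il17a, with 120 cells, had 216 CPM of Pdcd1 and 204 CPM of Ctla4. The MYC spinal clusters with Pdcd1 were made up mostly of cells of 1 tumor: 174 of the 185 and 67 of the 68 cells came from MYC spinal Rosini1172, and the eRT cluster led by Il17a held 119 cells of eRT Soxertini568.

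**Figure D2:**
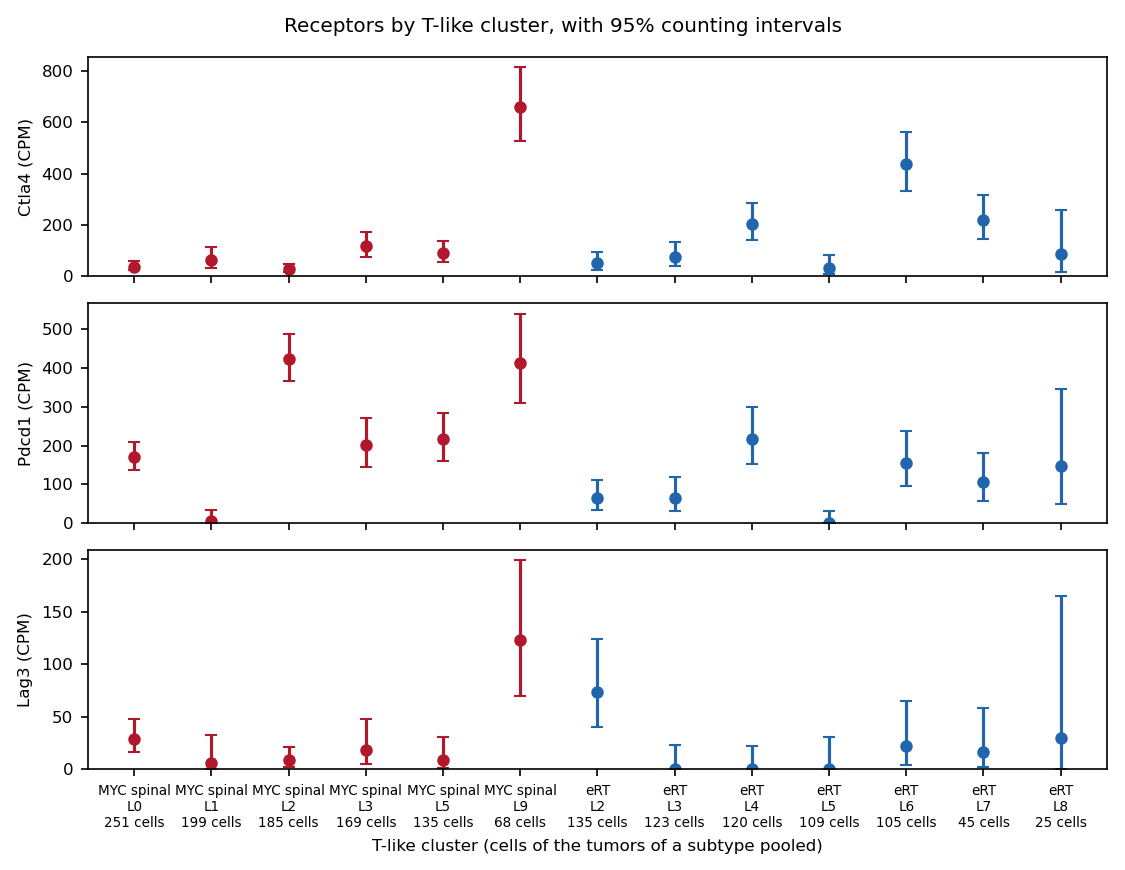
Level of Ctla4, Pdcd1 and Lag3 (CPM) in each T-like cluster, with cells of the tumors of a subtype pooled (red, MYC spinal; blue, eRT) and bars giving exact Poisson 95% intervals, which cover counting error only. The Foxp3 clusters L9 (MYC spinal) and L6 (eRT) carry the most Ctla4, at 659 and 436 CPM, while Pdcd1 is also at 424 CPM in L2, the MYC spinal cluster led by Cd163l1 and Il17a.

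Cells with CD8 and with CD4 transcripts were read apart as a description, without a test and pooled over the tumors. MYC spinal Rosini1172 gave 783 of the 1669 T-like cells and stood highest in Pdcd1. The part that the mix of tumors has in the values below was not tested. T-like cells with a Cd8a or Cd8b1 UMI and none of Cd4 or Foxp3 (433 cells) had 171 CPM of Pdcd1, 46.5 CPM of Ctla4 and 35.5 CPM of Lag3. Those with Cd4 and none of Cd8a, Cd8b1 or Foxp3 (135 cells) had 274, 188 and 96.3 CPM, the Lag3 UMIs of which, 19 in all, lay in 4 cells. In the 42 cells with Foxp3 no Lag3 UMI was found.

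Most Lag3 UMIs lay outside T-like cells. Of its 733 UMIs 319 were in macrophage- or monocyte-like cells, 172 in osteoclast-like cells, 62 in T-like and 57 in NK-like cells. NK-like cells had 40.2, 0 and 38.4 CPM in MYC spinal Rosini1172, Rosini1177 and Rosini1232, and 141, 56.3 and 200 CPM in eRT Rosini1148, Soxertini568 and Soxertini593. All eRT stood above all MYC spinal tumors. The NK-like cells of MYC spinal Rosini1177, at a median of 580.5 UMIs, could have held up to 93.7 CPM unseen, and in eRT Soxertini593 the value rests on 6 UMIs in 25 cells. Those 25 cells also held T markers at 1300 CPM, against 153 to 291 CPM in the NK-like cells of the other tumors. T-like cells of the same tumors had 26.3, 0 and 19.4 CPM, and 73.6, 20 and 0 CPM. NK-like exceeded T-like cells in 5 of 6 tumors, with both at 0 in the sixth, and Lag3 did not pass the filter on low counts for that comparison.

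In myeloid-like cells the Lag3 level was 215, 0.227 and 3.14 CPM in MYC spinal Rosini1172, Rosini1177 and Rosini1232, and 21.5, 6.46 and 6.67 CPM in eRT Rosini1148, Soxertini568 and Soxertini593. MYC spinal Rosini1172 stood far above the next tumor, eRT Rosini1148. There 199 of the UMIs were in 178 cells of 1 cluster, at 285 CPM and in 39.3% of cells, a cluster led by Ccl12, Tmem119, Apoe and C1qa. The 1331 cells of MYC spinal Rosini1232 in the same cluster had 4.38 CPM. Macrophage- or monocyte-like cells of MYC spinal Rosini1172 with no UMI of any T marker (162 cells) had 266 CPM of Lag3, and those with one (68 cells) had 154 CPM. Cells with a T marker UMI were also lower in MYC spinal Rosini1177 (0 against 0.472 CPM) and eRT Soxertini593 (5.4 against 6.28 CPM), and higher in the other 3 tumors, up to 18.8 against 2.37 CPM in eRT Soxertini568. The T-like cells of MYC spinal Rosini1172 had 26.3 CPM, less than its macrophage- or monocyte-like cells.

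In eRT Rosini1148 Lag3 was in 13.2% of 785 osteoclast-like cells, at 24.8 CPM and a median of 7280 UMIs a cell, and thinned to 1000 UMIs the share was 2.85%. The 1578 osteoclast-like cells of MYC spinal Rosini1232 had 2.84 CPM. Tumor cells had 0, 0 and 1.99 CPM in the MYC spinal tumors and 4.27, 4.81 and 5.15 CPM in the eRT. Between myeloid-like and tumor cells the difference was 1.98 ± 0.86 on the log2 scale and did not pass the test (adjusted p = 0.117, 6 tumors).

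Pdcd1 and Ctla4 were also read in myeloid cells by whether the cell held a T marker. Of 99 Pdcd1 UMIs in macrophage- or monocyte-like cells 70 were in MYC spinal Rosini1172, where 27 lay in the 162 cells without a T marker (46.7 CPM) and 43 in the 68 cells with one (123 CPM). Of 101 Ctla4 UMIs 82 (81.2%) lay in the 420 macrophage- or monocyte-like cells with a T marker UMI, and 19 in the 8076 without. For Lag3 that share was 20.1% of 319 UMIs, and for Havcr2 9.97% of 612. Cells with a T marker UMI were deeper, with a median of 4680 against 3330 UMIs in MYC spinal Rosini1172. The part that RNA of T cells has in the Pdcd1 level of these cells was not tested.

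**Figure D3:**
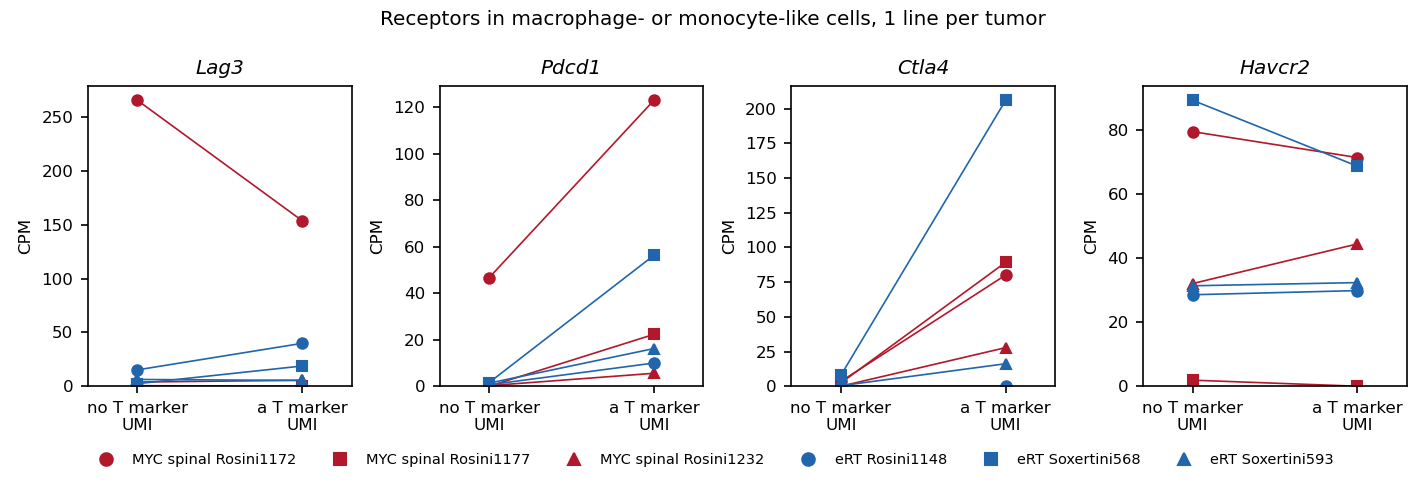
Level of Lag3, Pdcd1, Ctla4 and Havcr2 (CPM) in macrophage- or monocyte-like cells with no UMI and with at least 1 UMI of a T marker, with a line for each tumor. Pdcd1 lies higher in cells with a T marker UMI in 6 of 6 tumors and Ctla4 in 5 of 6, with both values at 0 in eRT Rosini1148, while Lag3 is higher with one in 3 of 6 tumors and lower in 3, among them MYC spinal Rosini1172 at 266 CPM without and 154 CPM with one.

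Most Havcr2 UMIs, 612 of 894, lay in macrophage- or monocyte-like cells. It had 73.8, 0.91 and 14 CPM in the myeloid-like cells of MYC spinal Rosini1172, Rosini1177 and Rosini1232, and 14.4, 69 and 31.1 CPM in those of eRT Rosini1148, Soxertini568 and Soxertini593. T-like cells had 7.23, 8.97 and 9.71 CPM, and 27.6, 16.7 and 4.6 CPM, each from 1 to 11 UMIs. MYC spinal Rosini1177 and eRT Rosini1148 had more in T-like than in myeloid-like cells and the other 4 tumors less. Havcr2 was lower in T-like cells by 2.22 ± 0.65 on the log2 scale (edgeR, adjusted p = 0.0377). The difference lost significance without MYC spinal Rosini1172 (-1.46, adjusted p = 0.216), without eRT Soxertini568 or Soxertini593, without the block, without TMM factors and with DESeq2. In eRT Soxertini568 it was 131 CPM in the cluster led by Thbs1, Cxcl3 and Arg1 and 98.3 CPM in the cluster led by the interferon-induced Ifit2, Rsad2 and Cxcl10.

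Tigit was near the limit of detection, with 31 UMIs in 30 of 22163 cells. T-like cells held it at 5.92 CPM in MYC spinal Rosini1172 and 8.35 CPM in eRT Soxertini568, and NK-like cells at 11.5 CPM in MYC spinal Rosini1172. It passed the filter in no comparison.

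Cells with several receptors at once were few at this depth. Of 1669 T-like cells 388 had 1 of the 5 receptors, 87 had 2 and 8 had at least 3. Cells with 2 or more made up 7.92% of the T-like cells of MYC spinal Rosini1172, 16.2% of the 37 of eRT Rosini1148 and 5.06% of those of eRT Soxertini568, and none in MYC spinal Rosini1177 and Rosini1232. They had a median of 1950 UMIs, against 1280 in cells with no receptor. Pdcd1 and Ctla4 shared 62 cells, which were 20.7% of the Pdcd1 cells and 29.8% of the Ctla4 cells. Of the 42 Lag3 cells 20 (47.6%) also had Pdcd1. Over all 1669 T-like cells Pdcd1 was in 299 and Ctla4 in 208. These shares pool the tumors, and 57 of the 87 cells with 2 receptors were from MYC spinal Rosini1172.

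Cd274, the transcript of PD-L1, varied widely between tumors. Macrophage- or monocyte-like cells had 20.5, 6.79 and 13.1 CPM in MYC spinal Rosini1172, Rosini1177 and Rosini1232, and 10.5, 103 and 2.94 CPM in eRT Rosini1148, Soxertini568 and Soxertini593. eRT Soxertini568 stood above all others, and it did so in neutrophil-like cells as well, with 206 CPM against 1.39 CPM in MYC spinal Rosini1177 and 10.9 CPM in MYC spinal Rosini1232. Its dendritic-like cells had 174 CPM, against 67.2, 109, 0 and 18.8 CPM in MYC spinal Rosini1177 and Rosini1232 and eRT Rosini1148 and Soxertini593. Within eRT Soxertini568 the level was 181 CPM in the cluster led by Thbs1, Cxcl3 and Arg1 (347 cells), 184 CPM in the cluster led by Ifit2, Rsad2 and Cxcl10 (89 cells) and 41.1 CPM in a cluster led by H2-M2, Mmp12 and H2-Eb1 (115 cells). The cluster of interferon-induced genes had 17.7 CPM in eRT Rosini1148 and 24.2 CPM in eRT Soxertini593, so the difference between tumors was also there among cells of 1 cluster.

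Tumor cells carried little Cd274. They had 7.27, 0 and 7.35 CPM in MYC spinal Rosini1172, Rosini1177 and Rosini1232, and 0, 11.2 and 1.03 CPM in eRT Rosini1148, Soxertini568 and Soxertini593, and all 6 values lay under the myeloid-like value of the same tumor (24.6, 4.32 and 11 CPM, and 6.96, 122 and 3.51 CPM). The 16 tumor cells of MYC spinal Rosini1177 allow up to 65.8 CPM. Over 9040 genes Cd274 was higher in myeloid-like than in tumor cells by 2.13 ± 0.47 on the log2 scale (edgeR with the tumor as a block, adjusted p = 0.00687). It lost significance without the block (2.80, adjusted p = 0.0748) and with coarser clusters (1.73, adjusted p = 0.056). Of the 5 members tested there, Cd274, Cd86 and Sirpa were past the threshold, all higher in myeloid-like cells, where 28.2% of all genes passed it in either direction. The median over the 5 was 2.13, beside 0.01 over all genes. Among sums of tumor cells alone only Cd47 and Sirpa had enough counts, so Cd274 and Cd86 could enter through the myeloid-like sums. This count and median are therefore not read as a result about the members. Pdcd1, Ctla4, Havcr2, Tigit and Pdcd1lg2 did not pass the filter on low counts.

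Pdcd1lg2, the transcript of PD-L2, was higher in dendritic-like than in macrophage- or monocyte-like cells. These cells had 67.2 and 43.5 CPM in MYC spinal Rosini1177 and Rosini1232, and 62.3, 80.5 and 25.1 CPM in eRT Rosini1148, Soxertini568 and Soxertini593, from 1 to 24 UMIs a tumor. Macrophage- or monocyte-like cells had 0, 2.22, 0.923, 14.8 and 0.919 CPM in the same order. The dendritic-like cells were higher in 5 of 5 tumors, and the ranges did not overlap. The value of eRT Rosini1148 came from 3 UMIs in 1 cell, and that of MYC spinal Rosini1177 from 1 UMI. Dendritic-like cells of eRT Rosini1148 and Soxertini593 held macrophage and monocyte markers at 9140 and 4500 CPM. Their dendritic markers were at 2100 and 1120 CPM, and the part of RNA from other cells was not tested. MYC spinal Rosini1172 had 9 dendritic-like cells, under the 10 required, and was left out.

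The difference in Pdcd1lg2 was 3.64 ± 0.58 on the log2 scale (edgeR, 5 tumors, adjusted p = 2.11e-08) and stayed past the threshold under all 13 alternatives, at 3.24 to 4.91. In T-like and NK-like cells Pdcd1lg2 was found as well, at 4.6 to 55.2 CPM and 0 to 76.7 CPM, and in B-like cells of 3 tumors at 12.6 to 73 CPM. These ranges overlapped that of dendritic-like cells. NK-like cells stood above dendritic-like cells in MYC spinal Rosini1232 (76.7 against 43.5 CPM) and eRT Soxertini593 (33.3 against 25.1 CPM), the latter from 1 UMI. Tumor cells held 1 UMI in all. Of 7 members tested between dendritic-like and macrophage- or monocyte-like cells, Pdcd1lg2 and Ctla4 passed, against 9.4% of all genes. Both had passed the filter on low counts mainly through the dendritic-like sums. Pdcd1lg2 had 25.1 to 80.5 CPM there against 0 to 14.8 CPM, and Ctla4 0 to 67.2 against 0 to 30.2 CPM. This count is therefore not read as a result about the members. The members' median was 0.82, beside -0.21 over all genes. Cd274 (1.42 ± 0.52, adjusted p = 0.064), Cd86 (0.82 ± 0.36, adjusted p = 0.165), Cd47 (0.77 ± 0.33, adjusted p = 0.152), Sirpa (-0.91 ± 0.40, adjusted p = 0.163) and Havcr2 (-0.61 ± 0.53, adjusted p = 0.64) did not.

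Ctla4 was higher in dendritic-like cells by 1.94 ± 0.62 on the log2 scale (edgeR, adjusted p = 0.0226). Of its 23 UMIs in the dendritic-like cells of the 5 tumors, 22 (95.7%) were in the 46 cells that also held a T marker UMI. For Pdcd1lg2 that share was 2.94% of 34 UMIs. The call for Ctla4 was lost without MYC spinal Rosini1177 or Rosini1232 or eRT Soxertini593, with coarser clusters (1.51, adjusted p = 0.174) and without the block (2.24, adjusted p = 0.445).

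Dendritic-like clusters led by Ccr7, Fscn1 and Ccl22, genes of mature migratory dendritic cells, carried all 3 ligands. In the eRT cluster (63 cells) Cd274 had 225 CPM, Pdcd1lg2 112 CPM and Cd86 308 CPM, and in the MYC spinal cluster (40 cells) they had 111, 70.3 and 301 CPM. The other eRT dendritic-like cluster, led by Plet1, Ccl17 and Flt3 (134 cells), had 50.4, 35.6 and 282 CPM. Of the 63 cells 50 were from eRT Soxertini568. Over all myeloid-like cells 17 had both Cd274 and Pdcd1lg2, which were 4% of 425 Cd274 cells and 21.2% of 80 Pdcd1lg2 cells.

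**Figure D4:**
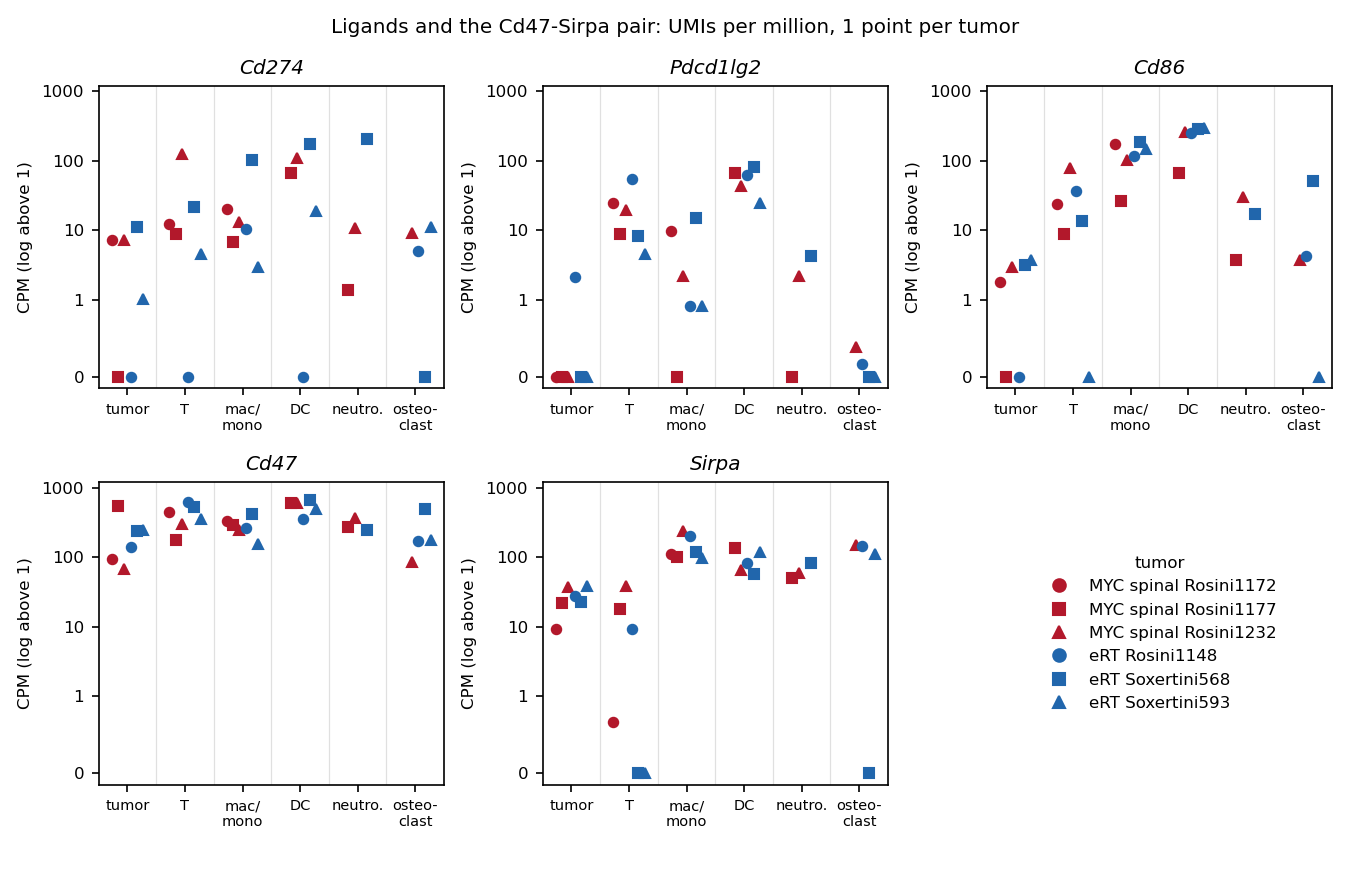
Level of Cd274, Pdcd1lg2, Cd86, Cd47 and Sirpa in each tumor (CPM, log axis above 1 and linear below) for tumor cells, T-like cells and 4 kinds of myeloid cells, with 1 point for each tumor with at least 10 such cells. Pdcd1lg2 in dendritic-like cells (25.1 to 80.5 CPM) lies above all macrophage- or monocyte-like values, eRT Soxertini568 is highest in Cd274 in macrophage- or monocyte-like, dendritic-like and neutrophil-like cells, and Cd47 is present in every kind of cell.

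Cd86, which binds both CD28 and CTLA-4, showed the largest difference from tumor cells among the members tested. Myeloid-like cells had 187, 15.5 and 40.4 CPM in MYC spinal Rosini1172, Rosini1177 and Rosini1232, and 45.8, 180 and 151 CPM in eRT Rosini1148, Soxertini568 and Soxertini593. Tumor cells had 1.82, 0 and 2.99 CPM, and 0, 3.21 and 3.78 CPM. The ranges did not overlap, and the difference was 5.32 ± 0.45 on the log2 scale (edgeR, adjusted p = 3.57e-05), past the threshold under all 15 alternatives.

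Among myeloid cells, osteoclast-like cells held little Cd86, with 3.74 CPM in MYC spinal Rosini1232 and 4.25 CPM in eRT Rosini1148 beside 102 and 118 CPM in their macrophage- or monocyte-like cells. Neutrophil-like cells had 3.69, 30.6 and 17.2 CPM in MYC spinal Rosini1177 and Rosini1232 and eRT Soxertini568, against 26.7, 102 and 189 CPM in macrophage- or monocyte-like cells. They were lower by 2.04 ± 0.43 on the log2 scale for Cd86 (edgeR, 3 tumors, adjusted p = 0.00613) and by 2.42 ± 0.62 for Havcr2 (adjusted p = 0.0217). These were 2 of 5 members tested, against 7.83% of all genes, with a members' median of -0.68 beside -0.11 over all genes. The count is not read as a result about the members, since both genes could enter the test through the macrophage- or monocyte-like sums alone. With 3 tumors both were lost without the block (adjusted p = 0.617 and 0.739) and without MYC spinal Rosini1177 or eRT Soxertini568, and Havcr2 also without MYC spinal Rosini1232 and with stricter limits on cells. In MYC spinal Rosini1177 the macrophage- or monocyte-like cells held neutrophil markers at 13700 CPM beside 14600 CPM of their own markers. The part of neutrophil RNA in these differences was not tested. Cd274 (0.49 ± 0.53, adjusted p = 0.696), Cd47 (0.43 ± 0.38, adjusted p = 0.611) and Sirpa (-0.68 ± 0.40, adjusted p = 0.404) did not pass.

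In T-like cells Cd86 had 24.3, 8.97 and 77.7 CPM in the MYC spinal tumors and 36.8, 13.4 and 0 CPM in the eRT. It was lower than in myeloid-like cells by 2.56 ± 0.78 on the log2 scale (edgeR, adjusted p = 0.0434), and 5 of 6 tumors showed this direction. MYC spinal Rosini1232 was the exception, and its 41 T-like cells also had the most macrophage and monocyte markers (4160 CPM) and 126 CPM of Cd274. The call was lost without MYC spinal Rosini1172 or Rosini1177 or eRT Soxertini568 or Soxertini593, without the block and without TMM factors. The part of RNA from other cells in these values was not tested.

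Cd47 was in every kind of cell. Tumor cells had 94.5, 548 and 68 CPM in MYC spinal Rosini1172, Rosini1177 and Rosini1232, and 139, 236 and 246 CPM in eRT Rosini1148, Soxertini568 and Soxertini593. Myeloid-like cells had 338, 280 and 155 CPM, and 204, 440 and 165 CPM. Tumor cells were lower in 4 tumors and higher in MYC spinal Rosini1177, which had 16 of them, and eRT Soxertini593. The 16 tumor cells of MYC spinal Rosini1177 also held neutrophil markers at 17200 CPM, against 2.75 to 864 CPM in those of the other tumors. The part of neutrophil RNA in their Cd47 level was not tested. The difference of 0.80 ± 0.35 on the log2 scale did not pass the test (edgeR, adjusted p = 0.119).

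NK-like cells had more Cd47 than T-like cells in 6 of 6 tumors, at 597, 187 and 601 CPM, and 689, 685 and 566 CPM, against 448, 179 and 301 CPM, and 616, 529 and 354 CPM. The ranges overlapped, and the difference of 0.43 ± 0.17 did not pass the test over 1776 genes (adjusted p = 0.236), of which 4.79% did. Cd47 was the 1 member with enough counts there.

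Sirpa, the receptor of CD47, was nearly absent from T-like cells. T-like cells held 8 UMIs in all, with 0.658, 17.9 and 38.8 CPM in MYC spinal Rosini1172, Rosini1177 and Rosini1232, and 9.2, 0 and 0 CPM in eRT Rosini1148, Soxertini568 and Soxertini593. Myeloid-like cells had 105, 76.4 and 178 CPM, and 165, 102 and 96.7 CPM, and all lay above all T-like values. Sirpa was lower in T-like cells, past the threshold in edgeR's test (adjusted p = 0.00119) and under all 15 alternatives, over which the log2 fold change ran from -7.01 to -4.27.

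Tumor cells had Sirpa at 9.08, 21.9 and 37.1 CPM, and at 27.8, 22.4 and 38.1 CPM, again without overlap with myeloid-like cells, which were higher by 2.49 ± 0.31 (edgeR, adjusted p = 0.000183, called in 15 of 15 alternatives). Osteoclast-like cells had 152 CPM in MYC spinal Rosini1232 and 145 CPM in eRT Rosini1148, below the 236 and 204 CPM of the macrophage- or monocyte-like cells there. Sirpa belongs to a family of closely related genes, and UMIs of such relatives could have been split or merged by the alignment.

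**Figure D5:**
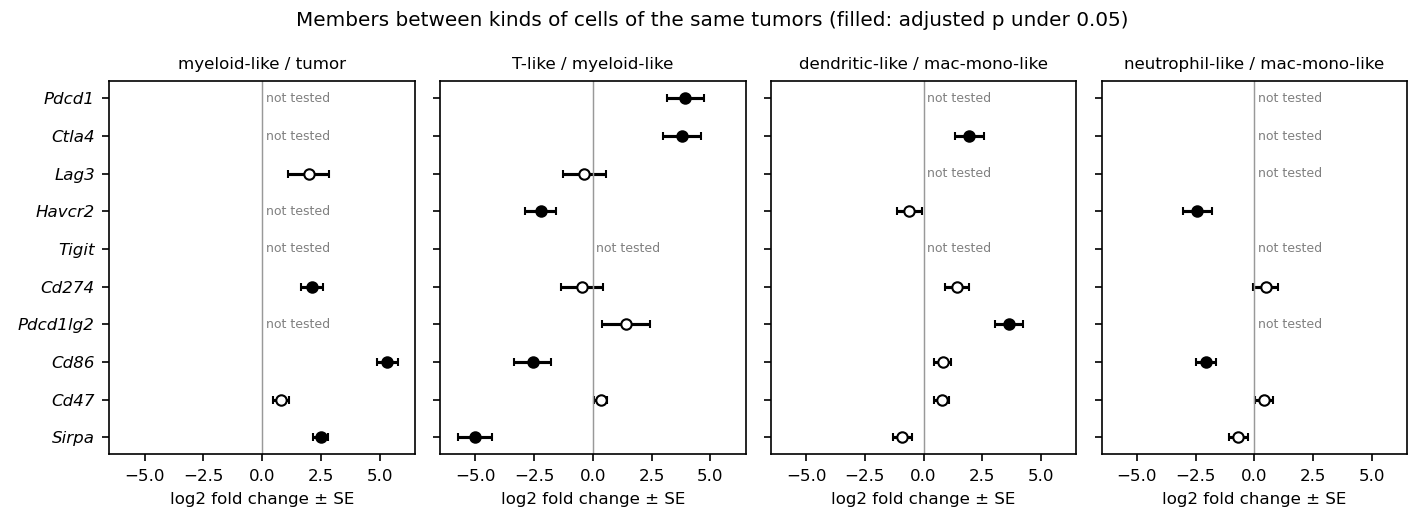
Log2 fold change of each member with its standard error in 4 comparisons within tumors (6, 6, 5 and 3 tumors), with filled points past an adjusted p of 0.05 and "not tested" for members that did not pass the filter on low counts. Cd86 and Sirpa stand highest in myeloid-like over tumor cells, Pdcd1 and Ctla4 in T-like over myeloid-like cells, and Pdcd1lg2 in dendritic-like over macrophage- or monocyte-like cells.

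Other genes of the pathway were read beside the members. The filter on low counts let these genes in through either kind alone as well. Counts of them called are therefore not read as results about their lists. Between T-like and myeloid-like cells 18.7% of 7491 genes were called, with a median of -0.07. All 8 costimulatory receptors tested of 9 listed were higher in T-like cells (median 4.00), among them Cd28 (4.58 ± 0.61), Cd2 (4.62 ± 0.70), Cd27 (2.80 ± 0.37) and Icos (4.79 ± 0.81). Of 9 other inhibitory receptors tested (median -0.60), 3 were higher in T-like cells, Cd96 (4.41 ± 0.73), Klrc1 (4.22 ± 0.77) and Klrg1 (4.09 ± 0.89), and 3 were lower, among them Pirb (-5.82 ± 0.70), which acts on myeloid cells. Of 7 other ligands tested (median -0.73) Cd24a was lower (-3.37 ± 0.84).

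Between myeloid-like and tumor cells 28.2% of 9040 genes were called, with a median of 0.01. Pirb, Vsir and Lilrb4a were higher in myeloid-like cells (4.31, 2.82 and 4.46), 3 of 4 other inhibitory receptors tested (median 3.56). Of 8 other ligands (median 0.74) Cd48 (5.28 ± 0.36) and Lgals3 (2.64 ± 0.64) were higher and Pvrl2, a ligand of TIGIT and CD226, was lower in myeloid-like cells (-1.44 ± 0.44). Both costimulatory ligands tested were higher (median 2.55), Cd40, which relays T cell help, by 2.55 ± 0.65 and Tnfsf9 by 2.56 ± 0.75, as was Tnfrsf9, the receptor of the latter (3.03 ± 0.76), 1 of 2 costimulatory receptors tested (median 2.23).

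In dendritic-like against macrophage- or monocyte-like cells 9.4% of 5870 genes were called, with a median of -0.21. All 5 costimulatory receptors tested were higher (median 2.85), with Tnfrsf18 at 3.73 ± 0.44, Tnfrsf4 at 3.26 ± 0.51, Tnfrsf9 at 2.85 ± 0.51 and Icos at 2.31 ± 0.57. The summed T markers were 20.8 to 739 CPM in these dendritic-like cells and 9.23 to 116 CPM in the macrophage- or monocyte-like cells of the same 5 tumors, and their part in that result was not tested. Of 8 other ligands (median 0.88) Cd200 (4.02 ± 0.50), Pvr (1.94 ± 0.43) and Cd80 (1.75 ± 0.49), the partner of Cd86, were higher and Lgals9, a ligand of TIM-3, was lower (-2.24 ± 0.51). Vsir (-1.82 ± 0.42) and Lilrb4a (-1.73 ± 0.40) were lower, 2 of 4 other inhibitory receptors (median -1.05). Cd40 was higher (1.64 ± 0.43), 1 of 3 costimulatory ligands (median 1.30).

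In neutrophil-like cells, where 7.83% of 7842 genes were called with a median of -0.11, Pirb was higher (1.34 ± 0.36), 1 of 5 other inhibitory receptors (median 0.75). Of 8 other ligands (median -0.18) Cd24a was higher (2.98 ± 0.40) and Cd48 lower (-1.96 ± 0.57). Tnfsf9 was lower (-1.84 ± 0.52), 1 of 2 costimulatory ligands (median -2.14), and none of 5 costimulatory receptors passed (median 0.06). Between NK-like and T-like cells 4.79% of 1776 genes were called with a median of -0.01. There Icos was lower (-3.10 ± 0.43), 1 of 6 costimulatory receptors (median -0.40), and Klrc1 higher in NK-like cells (1.68 ± 0.26), 1 of 2 other inhibitory receptors (median 1.44).

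Between subtypes no member passed the test. In myeloid-like cells 7 members were tested with 0 called, where 0% of 10252 genes passed with edgeR (288 genes at an unadjusted p under 0.05, and 32 genes past the threshold with DESeq2). Cd274 differed by 2.06 ± 1.35 on the log2 scale in favor of eRT, and without eRT Soxertini568 by -1.18. Lag3 differed by -2.37 ± 1.75, and without MYC spinal Rosini1172 by 2.63. Cd86 (0.96 ± 0.90), Havcr2 (0.75 ± 1.21), Ctla4 (0.51 ± 1.78), Cd47 (0.20 ± 0.56) and Sirpa (0.09 ± 0.44) had errors close to or above their differences, and the adjusted p was 0.999 for all 7.

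In T-like cells Cd47 (0.55 ± 0.40), Ctla4 (0.67 ± 0.67) and Pdcd1 (-0.30 ± 0.92) were tested over 2183 genes, with 0% called by edgeR, 19 genes at an unadjusted p under 0.05 and 0 with DESeq2. Without MYC spinal Rosini1172 the difference of Pdcd1 was 2.54. In tumor cells Sirpa (0.53 ± 0.59) and Cd47 (0.36 ± 0.84) were tested over 5716 genes, again with 0% called by edgeR, 208 genes at an unadjusted p under 0.05 and 21 with DESeq2. Within the Rosa26-cre strain 1 eRT stood beside 3 MYC spinal tumors: eRT Rosini1148 had 6.96 CPM of Cd274 in myeloid-like cells, inside their 4.32 to 24.6 CPM. With the mouse model as a covariate edgeR called 0 genes in each of the 3 kinds of cells, with 124, 52 and 118 genes at an unadjusted p under 0.05 in myeloid-like, T-like and tumor cells. That fit sets subtypes apart through eRT Rosini1148 alone, and the spinal site cannot be told apart from the subtype.

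Whether differences between kinds of cells themselves differed by subtype was tested as an interaction, with 0% of 10874 genes called for myeloid-like against tumor cells and 0.0108% of 9276 genes (1 gene, no member) for T-like against myeloid-like cells. No member passed, with an adjusted p of 1 except where given. In the first, eRT minus MYC spinal, the log2 differences were -3.67 for Pdcd1, -2.22 ± 1.67 for Lag3, 1.06 ± 1.12 for Havcr2, 1.77 ± 0.88 for Cd274, 0.98 ± 0.95 for Cd86, -0.72 ± 0.69 for Cd47 and -0.80 ± 0.64 for Sirpa. In the second they were 2.38 ± 1.35 for Pdcd1, 1.63 ± 1.46 for Ctla4, 3.29 ± 1.33 for Lag3 and 0.84 ± 1.31 for Havcr2 among the receptors. Among the others they were -3.57 ± 1.35 for Cd274 (adjusted p = 0.979), -0.63 ± 2.02 for Pdcd1lg2, -2.15 ± 1.37 for Cd86, 0.60 ± 0.56 for Cd47 and -2.72 ± 1.84 for Sirpa. Without the 20 cells of eRT Soxertini568 the counts of genes called were 0 and 1 as before.

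Genes whose levels ran most like each member's were sought over 40 sums of tumor and kind of cell, on log2(CPM + 10), among 12459 genes. These are descriptions over sums that share libraries and depth. Ctla4 followed the T cell receptor genes Cd3d, Cd3e and Cd3g (r = 0.87, 0.84 and 0.82), and Pdcd1 followed Xlr4a, Camk4 and Cxcr6 (0.85, 0.83 and 0.82). Cd86 followed the MHC class II genes H2-Eb1, H2-Ab1 and H2-Aa (0.85, 0.85 and 0.84). Pdcd1lg2 followed Slamf7, Epsti1 and Tmem173 (0.88, 0.77 and 0.76), and Sirpa followed Tgfbi, Pid1 and Clec4a2 (0.88, 0.88 and 0.87). Cd274 stood nearest to Pfkfb3, Ppp1r15a and Trim30b (0.74, 0.72 and 0.68), Havcr2 to Cysltr1, Adap2 and Fcgr2b (0.73, 0.73 and 0.72), Cd47 to Slamf7, Lsp1 and Pkp3 (0.75, 0.69 and 0.69) and Lag3 to Smyd3, Padi2 and Nars2 (0.67, 0.67 and 0.66).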

How the data were processed

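Processed data were tables of UMI counts per gene and cell from 6 tumors, 1 mouse each. The authors sorted live cells, made 10x 3′ libraries and aligned reads to mm10 with Cell Ranger 2.0.2, and the deposited counts are raw UMIs that had passed a light filter on genes and cells; 0 columns were left unused. A minimum of 200 genes and a mitochondrial share no higher than 25% were required of a cell, which left 22163 cells with 3841706 to 26184224 UMIs a tumor. Seurat 5.3.0 (R 4.3.3) integrated the tumors of each subtype by anchors (2000 variable genes without the members and pathway genes, 30 dimensions, 20 neighbors, resolution 0.8), and lymphoid clusters were clustered again. A name needed 3 markers in 10% of cells at a log2 fold of 1, and tumor cells were clusters with Smarcb1 under 0.25 of the expected level. Scrublet (scanpy 1.11.5) called 21 cells (0.0948%), which is too few to be a working call, so no doublets were removed, and an alternative left out the 843 highest scores.

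UMIs were summed per tumor and kind of cell (at least 10 cells) and tested with edgeR 4.0.16 (quasi-likelihood, TMM factors, filterByExpr) with Benjamini-Hochberg adjustment at 0.05 over all genes tested and the tumor as a block between kinds of cells, since these came from the same animal. Between kinds of cells the p-values measure how the difference within a tumor spreads over tumors. Between subtypes they measure the spread of levels between tumors. The tests were tried on simulated data with 200 changed genes. Intervals are exact at 95% and, like the limit of 3 counts for a value of 0, cover counting error only. Shares at 1000 UMIs leave out shallower cells. The alternatives were other scalings, DESeq2 1.42.0, other filters and cluster resolutions, each tumor left out, no block and the mouse model as a covariate. The fits of the interaction under other scalings, the cluster with T and NK markers counted as NK-like, and myeloid-like sums without osteoclast-like cells that held under 3 osteoclast markers (20 cells of 1 tumor), were added after seeing the data. All members tested were named in every comparison, with up to 4 called genes of each pathway list by adjusted p and the 3 genes with the highest Pearson r to a member (at least 50 UMIs). The members and lists were chosen with earlier results of these data known.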

Additional observations from a re-analysis of the deposited data

How the results depend on the processing

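Depth limits the rare receptors most: Tigit had 31 UMIs, and the T-like cells of MYC spinal Rosini1177 had a median of 488 UMIs. Numbers of genes past the threshold moved by over 1.5 times in these cases. With every gene of at least 1 UMI they were 4241 for myeloid-like against tumor cells, 2308 for T-like against myeloid-like, 424 for NK-like against T-like and 23 between subtypes in T-like cells. Without the replicate block for the tumor they were 870 for T-like against myeloid-like, 31 for NK-like against T-like, 93 for dendritic-like and 0 for neutrophil-like against macrophage- or monocyte-like cells. At resolution 1.6 the NK-like count was 53, and without TMM factors the neutrophil-like count was 1114 and the T-like interaction 0. DESeq2 called 32 genes between subtypes in myeloid-like cells, 21 in tumor cells, and 2 and 15 in the interactions for myeloid-like against tumor and T-like against myeloid-like cells. With each tumor left out in turn the counts ran from 910 to 1381 (T-like against myeloid-like), 42 to 123 (NK-like), 297 to 522 (dendritic-like), 264 to 417 (neutrophil-like) and 0 to 1 (subtypes in T-like cells), and the lowest of the first 4 came without eRT Soxertini568. With a pseudocount of 1 CPM, 15 of 27 of the genes most like a member were shared. Without TMM factors the median of all genes moved by -0.27 (myeloid-like against tumor), 0.29 (T-like against myeloid-like), 0.18 (dendritic-like), -0.53 (neutrophil-like), 0.14 (subtypes in T-like cells) and -0.34 (subtypes in tumor cells). In the first 4 the calls then split into 1110 higher and 1756 lower, 888 and 680, 275 and 250, and 254 and 860, beside 1430 and 1121, 466 and 936, 221 and 331, and 368 and 246.

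Reversals were seen only for members that had not passed the test. Lag3 in T-like against myeloid-like cells was 0.33 with DESeq2. In neutrophil-like cells Cd274 was -0.07 and Cd47 -0.11 without TMM factors, and Cd274 -0.10 with stricter cells. Between subtypes in myeloid-like cells the mouse model as a covariate gave Ctla4 -5.44, Havcr2 -0.93, Cd274 -0.90, Cd86 -0.77 and Cd47 -0.44, and macrophage- or monocyte-like cells alone gave Ctla4 -0.10 and Sirpa -0.004. In tumor cells Cd47 was -0.03 without TMM factors and -0.57 with the covariate. For T-like against myeloid-like cells, leaving out each tumor gave Cd274 from -1.79 to 0.61. For dendritic-like against macrophage- or monocyte-like cells, leaving out each tumor gave Havcr2 from -1.13 to 0.02. For neutrophil-like against macrophage- or monocyte-like cells, leaving out each tumor gave Cd274 from -0.68 to 1.11. For eRT against MYC spinal in myeloid-like cells, leaving out each tumor gave Lag3 from -3.01 to 2.63, Sirpa from -0.12 to 0.48, Ctla4 from -3.66 to 2.46, Cd47 from -0.43 to 0.45, Havcr2 from -0.04 to 2.42 and Cd274 from -1.18 to 2.61. For eRT against MYC spinal in T-like cells, leaving out each tumor gave Pdcd1 from -0.71 to 2.54. For eRT against MYC spinal in tumor cells, leaving out each tumor gave Cd47 from -0.12 to 1.80. Cd274 and Havcr2 in these comparisons changed sign without eRT Soxertini568, and Lag3 between subtypes without MYC spinal Rosini1172. The causes were not tested.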
